A study of Mus musculus with 22 samples.

Results

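Lines 2508 and 2855 are 2 of the 22 mouse mammary cell lines profiled on exon arrays, with 1 array for each line. The labels trace both to the same invasive carcinoma, ZD2508, of a mouse with an MMTV-Wnt transgene, so they share the transgene, the tumour and the host, as far as the labels say. MMTV is the mouse mammary tumour virus, whose promoter drives a transgene mainly in mammary epithelium. The label of 2855 names the carcinoma number of the other line, while the sources used here do not give how the lines were separated, their passage, or the strain and age of the mouse. Both grew in DMEM/F12 with 2.5% serum, insulin at 12 ng/ml and epidermal growth factor at 10 ng/ml; the extraction label speaks of tumour samples although these are cell lines. The 20 other lines, which serve here as a scale for levels, comprised 10 lines from other engineered tumours, 8 from spontaneous tumours and the 2 immortalized mammary lines EPH4 and NMUMG. The pair was chosen by line title, and the comparison is 2508 minus 2855 for each of 14860 named genes. With 1 array for each line the differences have no replicate check and no p-value, and they compare these cultures only.

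Mammary epithelium consists of an inner luminal layer and an outer basal or myoepithelial layer. Basal cells make the keratins Krt5 and Krt14 and the transcription factor p63, and anchor to the basement membrane by hemidesmosomes. Luminal cells make keratins such as Krt18 and Krt19 and are joined by E-cadherin and tight junctions. Wnt signalling is known to sustain mammary stem and progenitor cells, and tumours of MMTV-Wnt1 mice are known to hold both layers. Mesenchymal genes, such as Vim and the collagens, are made by stromal cells and by tumour cells that have lost epithelial features.

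The arrays were quantile normalized before any comparison, because their widths differed. The SD of the deposited log2 values was 1.76 in 2855, the lowest of the 22 arrays, and 1.88 in 2508, against up to 2.12 elsewhere. After normalization each array had a median of 6.91. A gene was counted as different when its normalized log2 values lay at least 2 units apart, which is 4-fold, and the higher value exceeded the array median. By this criterion 113 genes were higher in 2508 (0.76% of all genes) and 98 were higher in 2855 (0.659%), together 1.42%. The second count depended on the normalization. It was 61 when arrays were only centred on their medians and 65 when quantiles were taken over both arrays alone, while the first was 104 and 88. In 72 of the 113 and 69 of the 98 genes the lower line lay below the array median, where array values flatten towards background, so those sizes are uncertain.

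**Figure D1:**
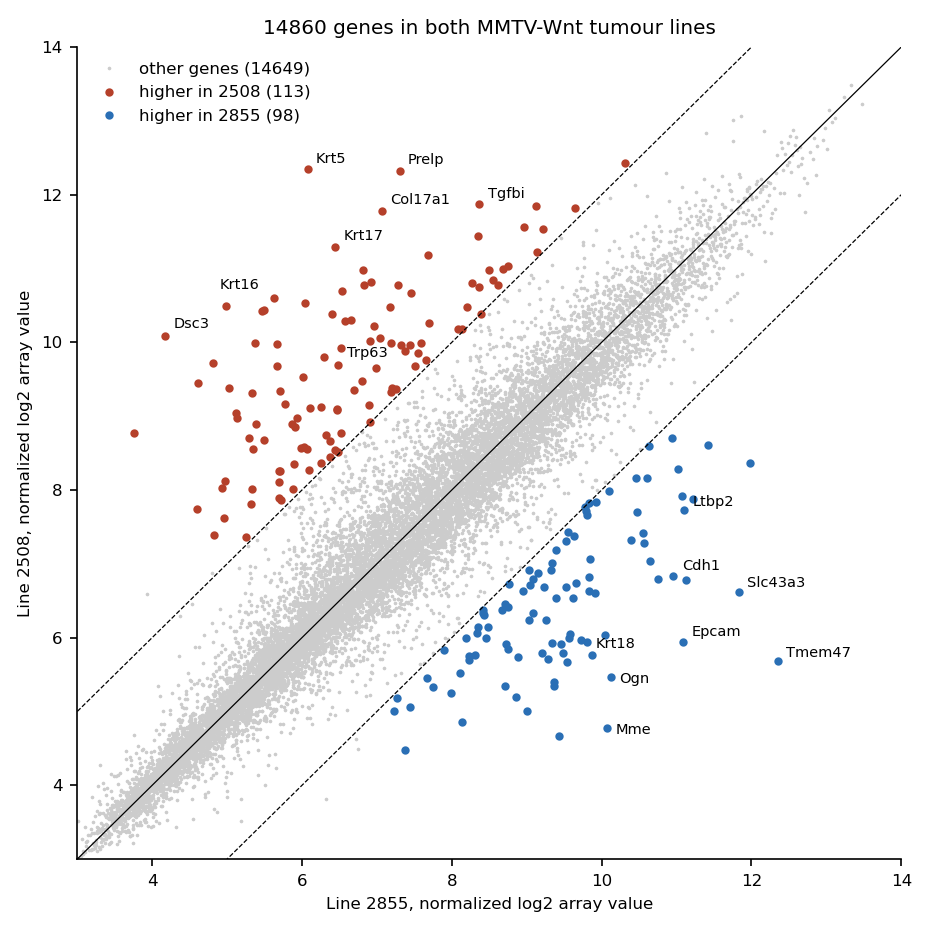
Normalized log2 array values of 14860 genes in line 2855 (horizontal axis) and line 2508 (vertical axis), with equality as a solid line and a difference of 2 log2 units as dashed lines. The 113 genes higher in 2508 are red and the 98 higher in 2855 are blue; Krt5 and Tmem47 lie farthest out on their sides.

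Just inside the threshold lay Slc16a13, which read 1.89 with quantiles over both arrays alone, and Msln (-2.01), which read -1.59 after median centring. Just outside it lay Eva1a (1.98) and Jam2 (-1.98). The median difference over all genes was -0.02.

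The scale of the difference can be read beside the other lines that share a tumour, nodule line or parent line. The SD of the gene differences was 0.60 between 2508 and 2855. It was 0.33 between M6 and its lung-metastatic derivative M6C, where 11 genes met the criterion (0.074%), and 0.41 between 4T07 and 4T1, with 80 genes (0.538%). Between the nodule lines D2A1 and D20R the SD was 0.47, with 129 genes (0.868%). The pairs with 67NR lay further apart, at 0.68 with 304 genes for 4T07 (2.05%) and 0.76 with 432 genes for 4T1 (2.91%). The Wnt pair with its 211 genes thus lay between the D2 and the 67NR pairs. Against the 20 other lines, 2508 differed at 284 to 489 genes and 2855 at 188 to 416. By this count at least 1 of the 20 lay nearer to 2855 than 2508 did. By the SD none lay nearer to either line, since the lowest against the 20 was 0.67 for 2508 and 0.63 for 2855. After each gene was centred on its mean over the 22 lines, 2508 and 2855 correlated at r = 0.41 across genes. With any of the 20 others r was at most 0.10 for 2508 and 0.28 for 2855. Genes are not independent and the 2 arrays may share technical features, so these r values are descriptions.

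**Figure D2:**
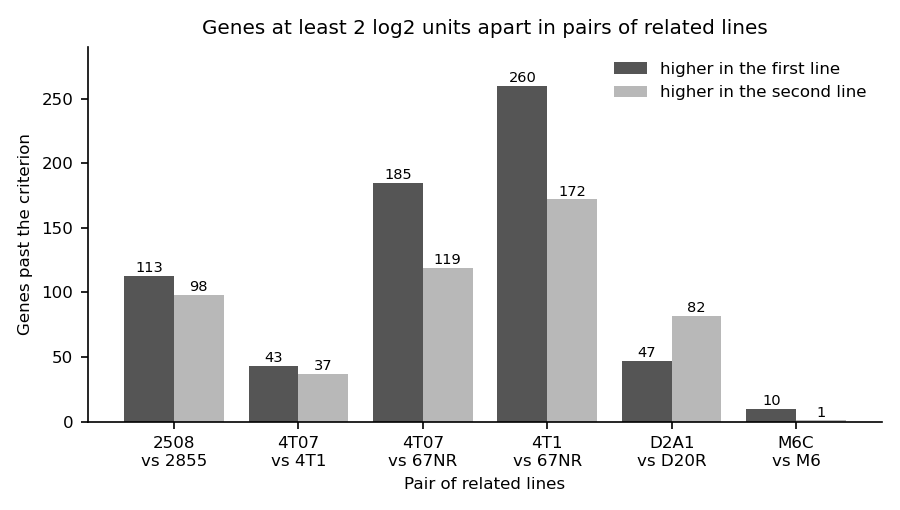
Number of genes past the criterion (vertical axis) in each of the 6 pairs of related lines, with dark bars for genes higher in the first line named and light bars for the second. The 113 and 98 genes of the Wnt pair lie above the M6, 4T07 and 4T1, and D2 pairs and below both pairs with 67NR.

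Line 2508 was marked by basal keratins and their regulator. Krt5, the keratin of basal epithelial cells, read 12.35 in 2508 and 6.08 in 2855, a difference of 6.27 or 77.3-fold. The other 20 lines read 5.77 to 6.34 with a median of 6.04. Only 2508 of the 22 lines was thus high, and 2855 lay inside the range of the rest. Krt17, a keratin of basal cells and of activated epidermis, read 11.30 against 6.44, and 10.52 at most elsewhere. Krt16, a keratin of stressed and hyperproliferative epidermis, read 10.60 against 5.63, with a highest value of 7.76 in the other lines. Trp63, which encodes p63, read 9.69 against 6.48 (difference 3.21), while the other 20 lines read 5.35 to 6.36. Both lines thus read above all others for Trp63, but 2855 by only 0.12 and below the array median of 6.91. Line 2855 read above all 20 others for 12.9% of all genes.

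Krt14, the partner of Krt5 in basal filaments, is given although it did not meet the criterion, and was chosen with its values known. It read 12.13 in 2508 and 10.45 in 2855, with a median of 6.44 in the other lines and a highest value of 12.09. The pair therefore shared high Krt14 but not Krt5. Type I keratins are close in sequence, and whether probes of Krt14, Krt16 and Krt17 measure each other's RNA was not tested.

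Of the 23 basal and myoepithelial genes listed, 22 were measured. Past the criterion, 8 were higher in 2508 and 2 in 2855, or 45.5% of the list where 1.42% of all genes were past it. Their median difference was 1.08. This list, like the others used here, was chosen with earlier results of these data known. Its share beside the 1.42% is therefore a description only. Besides Krt5, Krt17 and Trp63, the genes higher in 2508 were Cdh3, which encodes P-cadherin of basal cells (9.35 and 5.70), the Notch ligand Jag2 (10.78 and 7.29) and the calcium sensor Vsnl1 (10.26 and 7.69). The others were the galectin Lgals7 of stratified epithelium (10.48 and 8.20) and Dkk3, a secreted protein of the Dickkopf family (8.54 and 6.44), whose difference of 2.10 fell to 1.60 on the deposited values. Mme, which encodes the surface peptidase CD10 of myoepithelial cells, went the other way at 4.78 in 2508 and 10.08 in 2855. Ltbp2, a matrix protein related to the TGF-beta binding proteins, read 7.73 and 11.10, and no other line exceeded 9.46. Igfbp5, the third lowest of the list, read 5.36 and 6.14, both below the array median.

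None of the list's smooth muscle genes met the criterion. Acta2, Tagln, Mylk, Cnn1 and Myh11 were chosen from them with their values known. Acta2, which encodes smooth muscle actin, read 12.84 in 2508 and 11.40 in 2855. The other lines had a median of 6.53 and a highest value of 12.62. Tagln (8.62 and 7.59) and Mylk (6.18 and 5.62) leaned to 2508, and Cnn1 (7.42 and 7.95) to 2855. For Cnn1, 2855 exceeded the 20 others, which reached 7.59. Myh11, which encodes smooth muscle myosin, lay below the array median in both. Outside the list, the smooth muscle actin gene Actg2 (9.68 and 5.67) and the tropomyosin gene Tpm2 (8.56 and 6.07) met the criterion, higher in 2508. Both were chosen with their values known. On the deposited values Tpm2 read 8.45 and 6.54, less than 2 units apart. As the mean of the list's levels, 2508 read 9.18 and 2855 read 7.97, both above the range of the 20 others from 6.50 to 7.65.

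**Figure D3:**
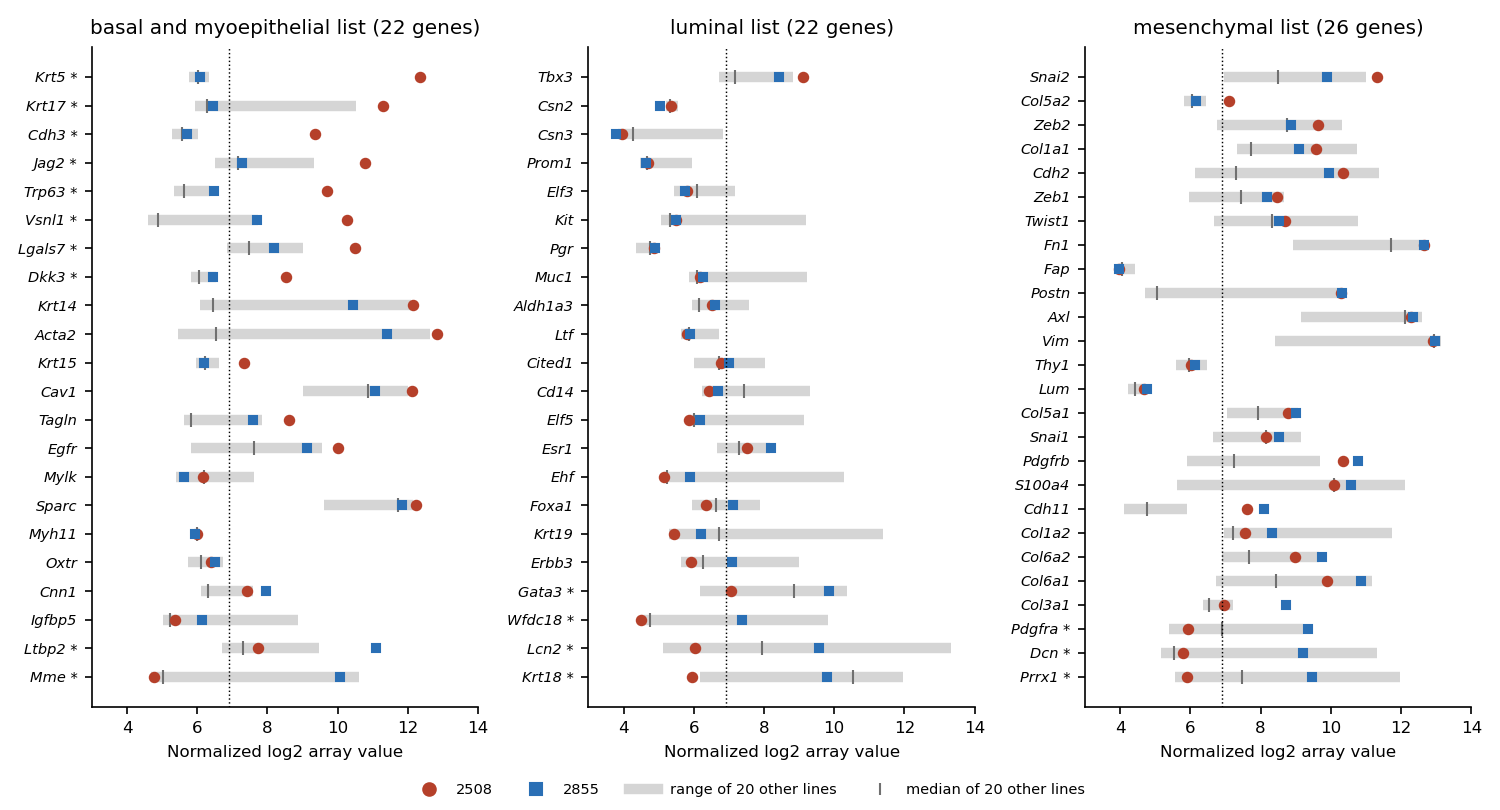
Normalized log2 array values (horizontal axis) of the measured basal and myoepithelial, luminal and mesenchymal genes, with 2508 as red circles, 2855 as blue squares, the range of the 20 other lines as grey bars and their median as a tick; asterisks mark genes past the criterion and the dotted line the array median of 6.91. The basal panel has 8 genes past the criterion with 2508 to the right, and in the luminal and mesenchymal panels all 4 and all 3 such genes have 2855 to the right.

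Some genes of desmosomes and hemidesmosomes were higher in 2508. Dsc3, a desmosomal cadherin of stratified epithelium, read 10.08 in 2508, 4.17 in 2855 and 4.04 to 4.40 in the other 20 lines. Its partner Dsg3 read 9.32 and 5.34, and reached 10.19 among the other lines. The desmosomal plaque gene Pkp1, outside the naming rule, read 12.43 and 10.31. Of the 20 hemidesmosome and basement membrane genes, 17 were measured. Past the criterion, 3 were higher in 2508 and none in 2855 (17.6% against 1.42% of all genes). Of the 17, 6 lay below 0 (median difference 0.41). The 3 were the hemidesmosomal collagen Col17a1 (11.78 and 7.06), the integrin subunit Itgb4 (11.84 and 9.13) and the laminin-332 chain Lamb3 (10.76 and 8.36). Col17a1 did not exceed 6.98 in any of the 20 other lines.

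The remaining genes among the 12 most in excess in 2508 did not belong to the basal list. Efemp1, which encodes a fibulin of the matrix, read 10.49 and 4.99, and Prelp, a leucine-rich matrix protein, 12.33 and 7.30. Sostdc1, a secreted antagonist of BMP and Wnt signalling, read 10.44 and 5.50, while the 20 other lines read 4.51 to 5.42. The amino acid transporter Slc7a8 read 10.43 and 5.47, against at most 5.53 elsewhere. Serpinb10, a protease inhibitor, read 8.77 and 3.75, the polarity gene Pard6g 9.71 and 4.81, and the membrane protein gene Tmem45a 9.44 and 4.62. In all 7 of these genes 2508 was above every one of the 20 other lines.

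Line 2855 read higher than 2508 for genes of the polarized epithelium, which some of the other lines also had at high levels. Cdh1, which encodes E-cadherin, read 6.83 in 2508 and 10.96 in 2855, a 17.5-fold difference. The other 20 lines read 6.44 to 11.90 with a median of 7.01, so 2855 lay among the high and 2508 among the low lines. Epcam, an epithelial adhesion molecule, read 5.94 and 11.09, Rab25, a small GTPase of apical recycling, 5.35 and 9.36, and Mal2, a gene of apical transport, 4.67 and 9.43. Esrp1, an epithelial splicing regulator, read 5.19 and 8.86. The other lines reached 11.66 for Epcam, 11.23 for Rab25, 10.78 for Mal2 and 10.80 for Esrp1, all above 2855.

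Of the 27 measured epithelial junction genes, 8 were higher in 2855 and 3 in 2508, or 40.7% against 1.42% of all genes. Their median difference was -0.37. The 8 were Cdh1, Epcam, Rab25, Esrp1 and 4 genes outside the naming rule, namely the claudins Cldn4 (6.14 and 8.34) and Cldn7 (6.92 and 9.03), the membrane protease St14 (6.82 and 9.83) and its inhibitor Spint1 (6.71 and 9.05). Cldn4, Cldn7 and Spint1 did not meet the criterion after median centring (-1.67, -1.59 and -1.76), on the deposited values or with quantiles over both arrays alone, and the 8 became 5 in each case. The 3 were the desmosomal genes Dsc3, Dsg3 and Pkp1 given above. Dsc2, Dsg2 and Pkp2, other desmosomal genes of the list chosen with their values known, differed by -0.09, -0.45 and -0.33.

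The repressors of Cdh1 did not separate the lines by the criterion. Snai2, which encodes the repressor Slug, read 11.32 and 9.89, and the 20 other lines did not exceed 11.00. Zeb2 read 9.63 and 8.87. Zeb1 (8.48 and 8.19), Snai1 (8.15 and 8.51) and Twist1 (8.69 and 8.52) were chosen with their values known. Snai1 thus leaned to 2855 and the other genes named here to 2508. Whether any of them acts on Cdh1 in these lines was not tested.

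Of the 22 luminal genes measured, 4 were higher in 2855 and none in 2508 (18.2% against 1.42% of all genes, median difference -0.25). Krt18, a keratin of simple epithelium, read 5.94 in 2508 and 9.81 in 2855. The lowest of the 20 other lines read 6.19 and their median was 10.53, so 2508 was the lowest of the 22. Gata3, a luminal transcription factor, read 7.06 and 9.84. Lcn2, an iron-binding secreted protein, read 6.05 and 9.58, and Wfdc18, a whey acidic protein relative, 4.48 and 7.37. The 3 largest differences towards 2508 were Tbx3, a mammary transcription factor (9.11 and 8.42), and the milk protein genes Csn2 (5.34 and 5.05) and Csn3 (3.96 and 3.77), which lay below the array median in both lines.

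Of 26 measured mesenchymal genes, 3 were higher in 2855 and none in 2508 (11.5% against 1.42% of all genes). Of the 26, 18 lay below 0 and 7 above it, and the median difference of -0.10 became -0.35 after MAD scaling, which divides each array by its median absolute deviation. Vim, an intermediate filament of mesenchymal cells, read 12.90 and 12.98, near the median of the 20 other lines at 12.93. The 3 genes were Prrx1, a transcription factor of mesenchyme (5.91 and 9.46), the matrix proteoglycan Dcn (5.80 and 9.21) and the growth factor receptor Pdgfra (5.93 and 9.34). The largest differences towards 2508 were those of Snai2 and Zeb2, given above, and of the fibrillar collagen gene Col5a2 (7.11 and 6.15). The mean level of the list was 8.61 in 2508 and 9.09 in 2855, both above the range of the 20 others from 7.12 to 8.48. Line 2855 thus read high for E-cadherin and Epcam and for Dcn and Pdgfra on 1 array. Whether its culture held more than 1 kind of cell was not tested, and fewer cells of a type and less RNA per cell cannot be told apart in these samples.

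The other genes among the 12 most in excess in 2855 had various roles. Tmem47, a claudin-like membrane protein, read 5.68 and 12.35, a 101-fold difference, and between 5.41 and 12.41 in the other lines. Slc43a3, a purine transporter, read 6.62 and 11.83, and Slc1a3, a glutamate transporter, 5.77 and 9.87. Ogn, a small matrix proteoglycan, read 5.46 and 10.12, and Stc1, a secreted glycoprotein, differed by -3.99. Ankrd1, a well-known target of YAP, read 6.78 and 11.13. Sorbs2, an actin adaptor, read 6.03 and 10.04. Slc43a3, Slc1a3, Ogn and Stc1 were above all 20 other lines in 2855, whereas Ankrd1 was set apart by 2508, since the lowest of the 20 others read 8.13.

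**Figure D4:**
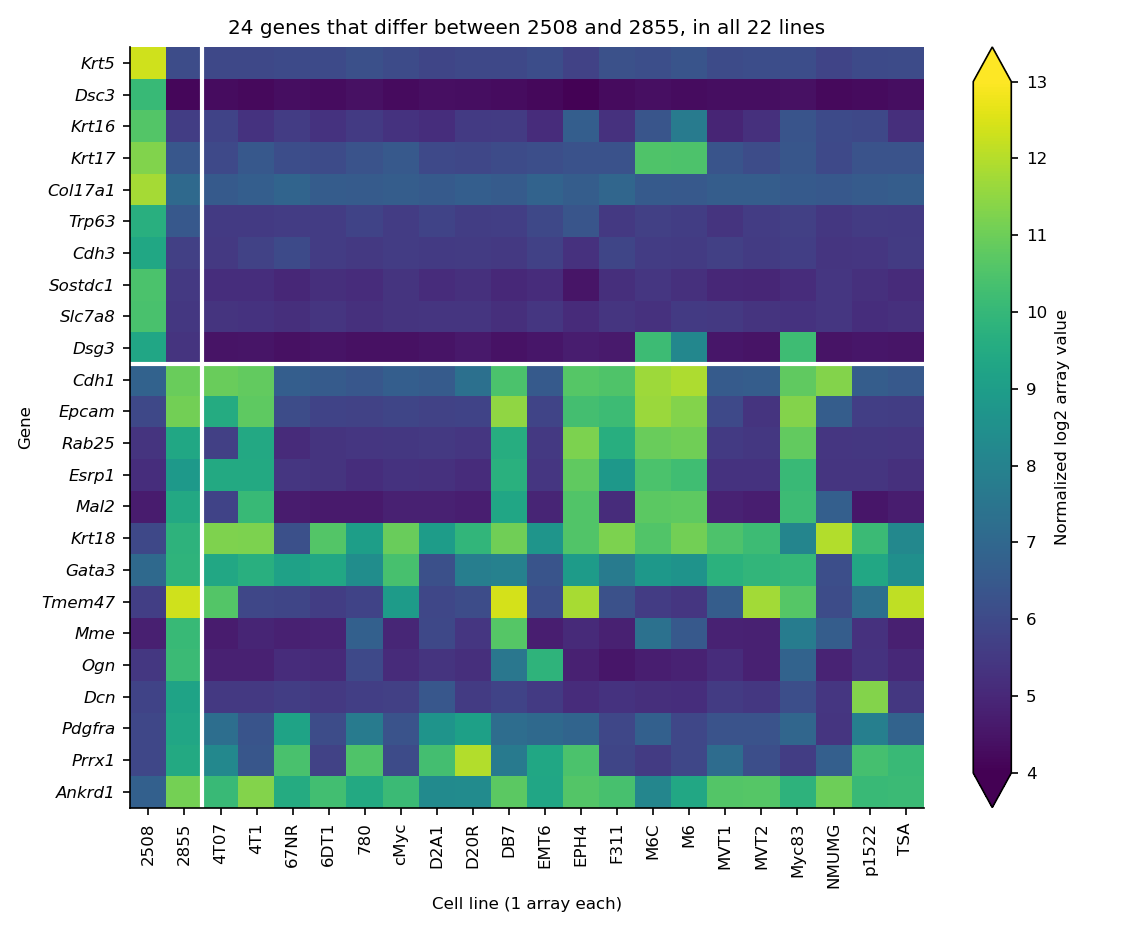
Normalized log2 array values (colour) of 24 genes past the criterion (rows) in the 22 lines (columns, 1 array each), with 2508 and 2855 left of the white vertical line. The 10 upper genes are high in 2508 and, apart from Krt17, Dsg3 and Krt16 in a few lines, low elsewhere; the 14 lower genes are high in 2855 and in varying sets of the other lines.

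The place of both lines among the 20 others is given as a description, since the genes were chosen by the same values of 2508 and 2855. Of the 113 genes higher in 2508, 79 had 2508 above all 20 other lines (69.9%), where 8.15% of all genes did. Of the 98 genes higher in 2855, 21 had 2855 above all 20 (21.4%), where 12.9% of all genes did. In 17 of the 98, 2508 lay below all 20 (17.3%, against 8.47% of all genes). Of the 113, 6 had 2855 below all 20, where 11.3% of all genes did. A gene chosen for a large difference is more likely to be extreme in 1 line, so the shares of all genes are no reference for those of the chosen genes.

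Promoter windows from RefSeq (build GRCm38.p6, 250 bases before the annotated start) are shown for 4 genes that carry the contrast, Krt5 and Col17a1 from 2508 and Epcam and Tmem47 from 2855. Capitals mark CAGGTG on either strand, written CACCTG on the other, the E-box that Snail and Zeb repressors are known to bind.
Krt5, chr15:101712906-101713155, minus strand: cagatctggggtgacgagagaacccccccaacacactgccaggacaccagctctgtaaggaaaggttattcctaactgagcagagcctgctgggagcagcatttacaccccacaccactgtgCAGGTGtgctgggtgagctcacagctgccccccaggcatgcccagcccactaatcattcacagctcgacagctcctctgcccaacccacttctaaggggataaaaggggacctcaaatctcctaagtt
Col17a1, chr19:47692043-47692292, minus strand: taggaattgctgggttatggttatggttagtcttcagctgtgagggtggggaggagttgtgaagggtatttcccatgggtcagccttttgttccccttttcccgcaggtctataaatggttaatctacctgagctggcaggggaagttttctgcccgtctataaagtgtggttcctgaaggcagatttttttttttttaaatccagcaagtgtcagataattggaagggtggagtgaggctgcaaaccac
Epcam, chr17:87635729-87635978, plus strand: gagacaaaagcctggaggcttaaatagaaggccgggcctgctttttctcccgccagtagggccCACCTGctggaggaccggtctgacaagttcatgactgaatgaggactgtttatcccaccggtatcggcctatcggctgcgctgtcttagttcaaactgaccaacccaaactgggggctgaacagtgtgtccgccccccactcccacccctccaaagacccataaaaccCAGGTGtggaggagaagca
Tmem47, chrX:81070394-81070643, plus strand: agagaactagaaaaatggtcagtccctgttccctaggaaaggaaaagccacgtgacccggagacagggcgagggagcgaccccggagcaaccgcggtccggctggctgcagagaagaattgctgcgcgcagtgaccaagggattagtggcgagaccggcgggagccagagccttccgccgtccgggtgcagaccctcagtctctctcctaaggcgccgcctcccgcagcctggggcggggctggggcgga
The Krt5 window held 1 such E-box, the Epcam window 2, and those of Col17a1 and Tmem47 none. A window was found for 85 of the 113 genes higher in 2508, of which 12 held CAGGTG on either strand (14.1%), and for 72 of the 98 genes higher in 2855, of which 20 did (27.8%). Over 1 window for each of 27025 genes the share was 17.1%. The letters alone show no binding.

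Signalling genes differed at single members. The share past the criterion was 15.4% in the Notch, 8% in the TGF-beta and BMP and 4.5% in the Wnt list, against 1.42% of all genes. Counts of 1 or 2 genes do not set such a list apart. In the Notch pathway 2 of 13 measured genes were higher in 2508 and none in 2855, namely the ligands Jag2, given above, and Jag1 (10.99 and 8.68), with a median of 0.46. In the TGF-beta and BMP pathway 1 of 25 was higher in each line. Tgfbi, a TGF-beta-induced matrix protein, read 11.87 and 8.37, and both lines exceeded the 20 others, which read 6.40 to 7.21. The co-receptor gene Tgfbr3 read 7.31 and 9.52, and its difference of -2.21 was -1.72 after median centring.

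In the Wnt pathway 1 of 44 measured genes was higher in each line and the median difference was -0.17. These were Dkk3 in 2508 and the Wnt antagonist Sfrp1 in 2855 (6.80 and 9.09), whose difference of -2.29 was -1.74 after median centring. Sostdc1, given above and higher in 2508 by 4.94, was in neither this list nor the TGF-beta and BMP list. Wnt1 itself read 5.78 and 5.60, within the 5.11 to 9.11 of the other lines and below the array median. Whether its probes detect the transgene was not tested, and the labels do not name the Wnt gene of the transgene. Myc read 10.96 in both. In the EGF receptor list none of 17 met the criterion (median -0.18), which 1.42% of all genes met. The EGF receptor ligand gene Epgn was not in that list and met it, at 10.47 and 7.17. Epgn was chosen with its values known.

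**Figure D5:**
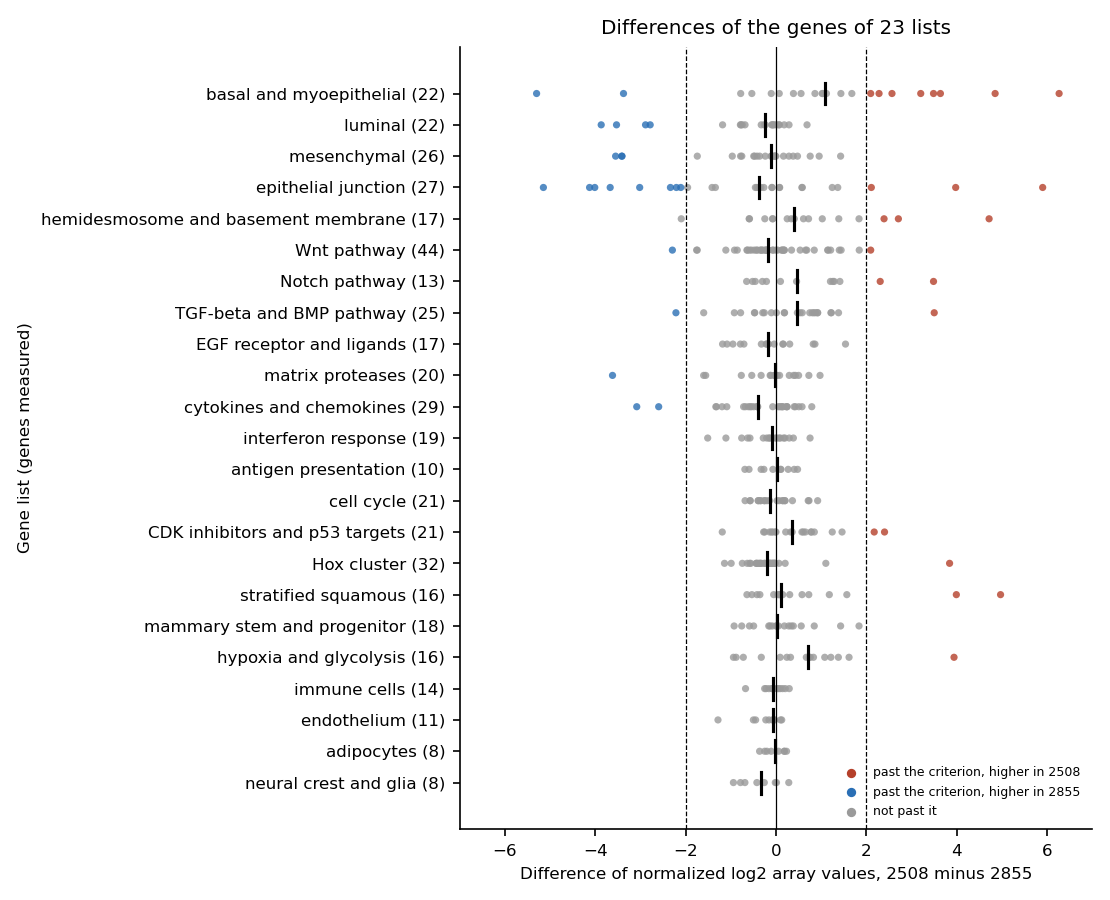
Differences of normalized log2 array values, 2508 minus 2855 (horizontal axis), for every measured gene of the 23 lists (rows, number measured in brackets), with a black bar at each list's median and dashed lines at 2 log2 units. The basal and myoepithelial list has the highest median, 1.08, with genes past the dashed lines on both sides.

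Cytokine, protease and growth-control lists held few differing genes. The share past the criterion was 6.9% for cytokines, 5% for proteases, 9.5% for CDK inhibitors and p53 targets and 6.25% for hypoxia. It was 1.42% over all genes, and counts of 1 or 2 do not set such a list apart. The chemokines Cxcl12 (5.52 and 8.11) and Cxcl16 (6.54 and 9.62) were higher in 2855, 2 of 29 measured (median -0.40). Outside that list, the cytokine genes Ppbp (11.82 and 9.65), Il17b (10.29 and 6.57) and Il1f9 (7.36 and 5.25) were higher in 2508. They were chosen with their values known. On the deposited values Il1f9 read 7.43 and 5.71, less than 2 units apart. The metalloprotease inhibitor Timp3 read 8.36 and 11.98 and was 1 of 20 matrix protease genes to differ (median -0.02). Of 21 genes for CDK inhibitors and p53 targets, 2 were higher in 2508 (median 0.36), the CDK inhibitor gene Cdkn1a (9.38 and 7.21) and Trp53inp1 (8.10 and 5.70). Both fell just short of the criterion after median centring, at 1.99 each. Egln3, an oxygen-sensing hydroxylase, read 10.77 and 6.83 and was 1 of 16 hypoxia and glycolysis genes (median 0.71). It was 10.13 at the median of the 20 other lines, with 4 of them below 2855 and 18 below 2508.

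Hoxb2 read 8.98 and 5.13 and was the only 1 of 32 measured Hox genes past the criterion (3.1%, median -0.20). With 1.42% of all genes past it, 1 gene does not set this list apart. In the stratified squamous list Krt16 and the epithelial gene Trim29 (10.39 and 6.39) met the criterion, 2 of 16 (12.5%, median 0.12). Krt1, Krt10, Lor and Ivl, chosen with their values known, lay below the array median in both lines. No gene met the criterion among the 21 cell cycle genes (median -0.14), 19 interferon response genes (-0.08), 10 antigen presentation genes (0.02) or 18 mammary stem and progenitor genes (0.04). Since 1.42% of all genes met it, lists of this size may hold none without being set apart. Outside these lists the cyclin genes Ccnd2 (11.56 and 8.97) and Ccng2 (7.86 and 5.72) met it, and were chosen with their values known. The cell cycle mean was 9.62 in 2508 and 9.65 in 2855, both below the 9.76 to 10.33 of the 20 others.

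No gene of the 4 lists for other cell types met the criterion, which 1.42% of all genes met. Outside these lists Cd34, a surface protein of endothelial, blood-forming and stromal cells (7.92 and 11.07), and Eng, a TGF-beta co-receptor of endothelium (a difference of 2.41), did, and both were chosen with their values known. Their part in the results was not tested. Of 14 immune cell genes 1 exceeded the array median in 2508 and 2 in 2855, with list means of 5.50 and 5.55 against 5.25 to 5.63 in the other lines. Of 11 endothelial genes none did in 2508 and 2 in 2855, with means of 5.64 and 5.88 against 5.34 to 5.79. Ptprc, which marks leukocytes, read 4.42 and 4.46, and Pecam1, which marks endothelium, 5.52 and 5.58. The 8 adipocyte genes had means of 5.70 and 5.73, within the 5.58 to 6.59 of the other lines. The 8 neural crest and glia genes had means of 7.32 and 7.67, within 6.36 to 7.78, and a median difference of -0.34. Of the markers of the labelled epithelial origin, Krt14 was high in both lines, Krt5 in 2508 alone, and Epcam in 2855 alone.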

How the data were processed

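RNA of 22 mouse mammary cell lines was measured on exon arrays, 1 array for each line. The deposited table holds 1 value for each entry and array, taken as log2 from its range (2.74 to 13.9), since the scale is not stated. Per the submitters' processing notes the software was GCOS and the genome build mm9. The sources used here do not give background correction, summarization or normalization. The number of arrays limits the precision.

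Of 23332 entries, the 16755 numbered as transcript clusters were used and quantile normalized over the 22 arrays. Platform annotation gave 1 symbol for 14996, several for 1019 and none for 740, and only the first were named. Of the 233 clusters past the criterion, 9 had several symbols and 13 none. The probe set with the highest mean stood for a gene, leaving 14860 genes, of which 14805 matched RefSeq GRCm38.p6.

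No test was possible, so the fixed criterion of 2 log2 units was used. Named genes were the 12 largest differences in each direction, all basal, luminal and mesenchymal genes past the criterion with the 3 largest each way, up to 6 of each other list, Krt5, Wnt1, Myc, Cdh1, Vim, and those nearest the threshold. Members and the 23 lists were chosen with earlier results of these data known. The steps were tested on simulated data with planted differences of 3 log2 units in genes above the array median. That test did not cover differences near 2 units. Python 3.11.15, numpy 2.4.6, pandas 2.3.3 and matplotlib 3.10.9 were used.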

Additional observations from a re-analysis of the deposited data

How the results depend on the processing

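No paired analysis was possible because each line has 1 array, and for the same reason no replicate could be left out. The number of genes higher in 2855 was 98, and became 61 with each array centred on its median and 65 with quantiles over both arrays alone. At a threshold of 1.5 log2 units the counts were 232 higher in 2508 and 168 in 2855, and at 3 units 52 and 41. At 3 units, 5 basal genes were higher in 2508 and 2 in 2855, and 2 luminal and 3 mesenchymal genes were higher in 2855. The basal median was 1.25 after median centring, and the mesenchymal median -0.35 after MAD scaling. The 8 epithelial junction genes higher in 2855 became 5 after median centring, on the deposited values and with quantiles over both arrays alone. Of the 56 genes past the criterion under the naming rule, 49 to 56 stayed past it under the 6 other normalizations or entry rules, and none changed sign. No gene past the criterion in one direction passed it in the other under these 6. Some medians of other lists near 0 changed sign. After median centring these were -2.61e-04 for antigen presentation, 0.11 for cell cycle and -0.034 for stem and progenitor genes. On the deposited values they were -0.12 for antigen presentation, -0.028 for stratified squamous and -0.15 for stem and progenitor genes. After MAD scaling they were 0.062 for matrix proteases, 0.022 for immune cells and 0.13 for adipocytes. The causes were not tested. Values below the array median limit what the sizes show.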

Other observations

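These genes and windows were picked out after their values were seen. Line 2508 lay far below the other 21 lines for a few genes that every other line had at a high level. Rhoc, a small GTPase of cell motility, read 7.42 in 2508, 10.56 in 2855 and no lower than 9.99 in the 20 others. S100a1, a calcium-binding protein, read 7.29 and 10.57, and no lower than 9.63 in the others. Uqcr10, a subunit of respiratory complex III, read 6.88 and 9.15, and no lower than 8.36 in the others, but its difference was -1.73 after median centring. In the opposite case, 2855 read 5.98 for Carhsp1 and 4.60 for Nop53, against lowest values of 7.32 and 5.77 in the 20 others and 8.57 and 7.74 in 2508. The insulin-like growth factor binding proteins Igfbp2 (10.82 and 6.92) and Igfbp3 (10.78 and 8.62) were higher in 2508, which exceeded the 20 others for each. Line 2855 also exceeded them, but by only 0.17 for Igfbp2 and 0.01 for Igfbp3, and it did so for 12.9% of all genes. The developmental transcription factors Ebf1 (5.74 and 8.88), Tbx18 (5.70 and 8.23) and Bnc2 (6.24 and 9.03) were higher in 2855, which exceeded the 20 others for each.

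The differences were not spread evenly over the chromosomes of the RefSeq table. Over all genes, 7026 of 14860 were higher in 2508. On chromosome 1, 550 of 849 genes were higher in 2508 (64.8%, median 0.15). There 15 met the criterion in that direction and 4 in the other, where 0.76% and 0.659% of all genes did. On chromosome 16, 300 of 471 were higher in 2508 (63.7%, median 0.10). On chromosome 8, 230 of 752 were (median -0.19), and on chromosome 15, 199 of 568 (median -0.14). On chromosome 3, 262 of 707 were (median -0.10), and on chromosome 17, 261 of 692 (median -0.10). After median centring these medians were 0.18, 0.14, -0.10, -0.06, -0.07 and -0.04 in that order. Relative to each pair's own median, chromosome medians ran from -0.16 to 0.17 in the Wnt pair. They ran from -0.12 to 0.13 between 4T07 and 67NR, and from -0.06 to 0.18 between M6C and M6. The range was -0.10 to 0.12 between 4T1 and 67NR and -0.09 to 0.07 between 4T07 and 4T1. Between D2A1 and D20R it was -0.07 to 0.08. DNA copy number was not tested. Among runs of 9 neighbouring genes, the run from Krt9 to P3h4 on chromosome 11, which holds Krt14, Krt16 and Krt17, had the highest median difference, 1.37.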
